A study of Homo sapiens with 6 samples.

Results

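The genes described here build, fold and inspect proteins in the endoplasmic reticulum (ER), or signal when that work fails. They are 43 named genes, taken by symbol from the 18056 genes in the deposited table, and were grouped by role into chaperones, disulfide isomerases, stress sensors, degradation factors, the translocation channel and its partners, signal peptidase and membrane proteins of the rough ER. Of the 43, 42 had enough reads to be tested among 13842 genes. DERL3, a degradation factor paralogous to DERL1 and DERL2, was the exception, with 0.061 to 0.426 CPM (read counts scaled to a common library size) across the libraries.

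Secreted and membrane proteins enter the ER through the SEC61 channel, lose their signal peptide to signal peptidase, and fold with the help of the chaperone HSPA5 (BiP), the lectins calnexin and calreticulin, and disulfide isomerases. Proteins that fail to fold are pulled back out and degraded (ER-associated degradation). When misfolded proteins accumulate, the sensors IRE1 (the product of ERN1), ATF6 and PERK (EIF2AK3) start the unfolded protein response, in which spliced XBP1 and cleaved ATF6 act on promoter elements of chaperone genes while PERK slows translation and favours translation of ATF4.

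The RNA came from human forebrain organoids, cell aggregates that self-organise into forebrain-like tissue, grown from the induced pluripotent stem cell line DYR0100, which the labels give as wild type. Vehicle was given to 3 samples and 5 µM Aβ42, the aggregation-prone amyloid-β peptide, to 3 samples for 6 days, and the labels place all 6 libraries in 1 batch. All organoids derive from 1 line. The labels do not say how many organoids entered a library or whether libraries came from separate cultures, so p-values measure the spread between these libraries, which may be technical.

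Total estimated counts were 16465390 to 16742958 per library. The label of the cells names only the stem cell line, and the dorsal forebrain genes EMX1, EMX2, LHX2, PAX6, TBR1, NEUROD6 and BCL11B were present in every library, with LHX2 at 145.1 to 161.1 CPM and TBR1 at 198.8 to 233.6 CPM. The 7 neuronal markers summed to 5969.7 to 6426.0 CPM after vehicle and 5597.3 to 5872.3 CPM after Aβ42. Singly 4 of the 7 were higher and 3 lower, with a median log2 fold change of 0.004. The lower ones were DCX (-0.15), TUBB3 (-0.16) and MAP2 (-0.18), while SNAP25 (0.15) was higher in every Aβ42 library. The 6 radial glia markers summed to 2339.1 to 2499.3 CPM after vehicle and 2553.5 to 2686.8 CPM after Aβ42. HOPX (log2 fold change -0.45) and NES (-0.20) went the other way. They were the 2 radial glia markers that passed with the replicate number as a block, a pairing that the labels do not give. Of 7 microglial markers, TREM2, C1QA and TYROBP were at 0 in every library and the 7 summed to 0.366 to 0.793 CPM. All 6 markers of dividing cells were lower with Aβ42, with sums of 701.5, 841.5 and 757.9 CPM after vehicle and 470.8, 643.6 and 454.6 CPM after Aβ42. The 7 choroid plexus markers summed to 985.6 CPM in vehicle replicate 2 and 916.2 CPM in Aβ42 replicate 2, against 395.3 to 503.2 CPM in the other libraries. The 7 fibroblast or mesenchymal markers summed to 43.6 to 80.6 CPM after vehicle and 34.6 to 46.5 CPM after Aβ42. DCN made up much of that sum, at 27.2, 58.6 and 23.4 CPM after vehicle and 12.1, 24.2 and 12.1 CPM after Aβ42. Of the 5 tested markers 3 were higher and 2 lower, with a median log2 fold change of 0.176. PDGFRB (0.18) was higher and LUM (-0.57) lower in every Aβ42 library. Besides the markers of dividing cells, 8 passed with the block, all lower: TBR1, TUBB3, MAP2, NES, HOPX, CLIC6, OTX2 and DCN, with adjusted p-values of 2.28e-06 to 0.0291. Of all genes 14.2% passed with the block. No marker passed in edgeR's test without it, where CLIC6, OTX2 and DCN, with overlapping groups, had adjusted p-values of 0.568, 0.519 and 0.263. On the leading principal component, which held 51.6% of the variance of the 500 most variable genes, Aβ42 replicate 2 (-3.73) lay among the vehicle libraries (-17.6 to -2.69) and apart from Aβ42 replicates 1 and 3 (16 and 12).

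The summed level of the ER genes moved little, and its relation to the vehicle range depended on the scale. The 43 levels summed to 5104.1, 5177.7 and 5188.7 CPM in vehicle replicates 1 to 3 and to 5134.3, 5185.3 and 5120.7 CPM in Aβ42 replicates 1 to 3, all within the vehicle range. Per transcript length they summed to 5013.6, 5119.8 and 5105.2 TPM (transcripts scaled to a common total) after vehicle and to 4937.8, 5097.6 and 4909.1 TPM after Aβ42, where replicates 1 and 3 lay below every vehicle library. On the TPM scale the median log2 difference of all genes tested was -0.04. Of the 42 tested genes 22 were higher and 20 lower after Aβ42, with a median log2 fold change (Aβ42 over vehicle, positive where Aβ42 was higher) of 0.011 beside 0.003 over all genes tested, and 8 of these directions turned under some alternative scaling, correction or left-out library. The median size of the change, without its sign, was 0.103 beside 0.116 over all genes. Single genes ranged from -0.23 (SPCS2) to 0.37 (RRBP1) on the log2 scale. RNA was measured in whole organoids, so fewer cells of a type and less RNA per cell cannot be told apart, here or in any result that follows.

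**Figure D1:**
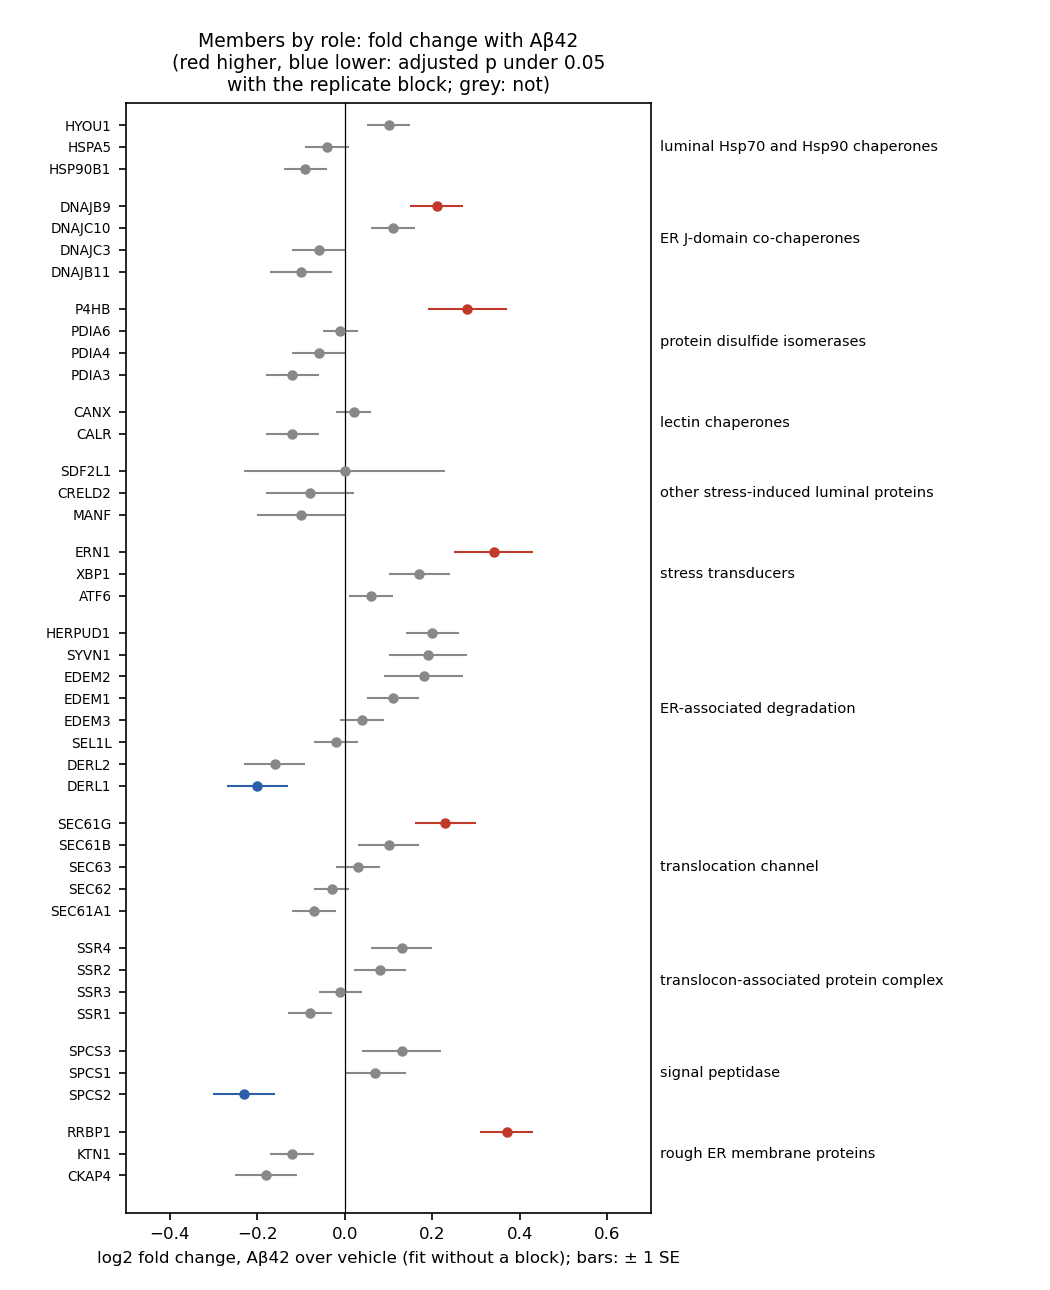
Log2 fold change of Aβ42 over vehicle (x axis) for the 42 tested ER genes (y axis), grouped by role, with bars of 1 SE from the fit without a block over 3 libraries per group. The 5 red genes (DNAJB9, P4HB, ERN1, SEC61G and RRBP1) and the 2 blue genes (DERL1 and SPCS2) passed an adjusted p of 0.05 with the replicate block, and all 42 lie between -0.23 and 0.37.

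No ER gene passed edgeR's quasi-likelihood test without a block, and neither did any other gene (0 of 13842, 0.0%). The smallest adjusted p among the 42 was 0.0684, for RRBP1. At an unadjusted p under 0.05 there were 8 higher and 5 lower ER genes, 31.0% of the 42, beside 23.9% of all genes. With the replicate number as a block, 5 ER genes were higher and 2 lower (16.7%) beside 14.2% of all genes, and with the block and a correction for transcript length together 4 were higher and 4 lower beside 14.6%. The labels do not say that libraries of the same number are paired, so every call with the block rests on an assumed pairing. DESeq2 without a block called 2 of them, RRBP1 and P4HB, both higher (4.88% of the 41 to which it gave an adjusted p), beside 6.3% of all genes. With the block and with DESeq2 the share of ER genes called was thus near that of all genes. At the unadjusted p it was higher, and edgeR without a block called no gene to compare.

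In 9 ER genes all 3 Aβ42 libraries lay above all 3 vehicle libraries and in 6 they lay below, together 35.7% of the 42 beside 27.0% of all genes. An exact permutation test of 3 libraries against 3 cannot give a p under 0.1. Aβ42 replicate 2 often lay within the vehicle range. In 12 ER genes (28.6%, against 21.0% of all genes) it fell inside the vehicle range while replicates 1 and 3 lay outside on the same side. Without that library 9 ER genes were called higher and 7 lower, 38.1% beside 23.3% of all genes, while leaving out any other library gave no call.

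**Figure D2:**
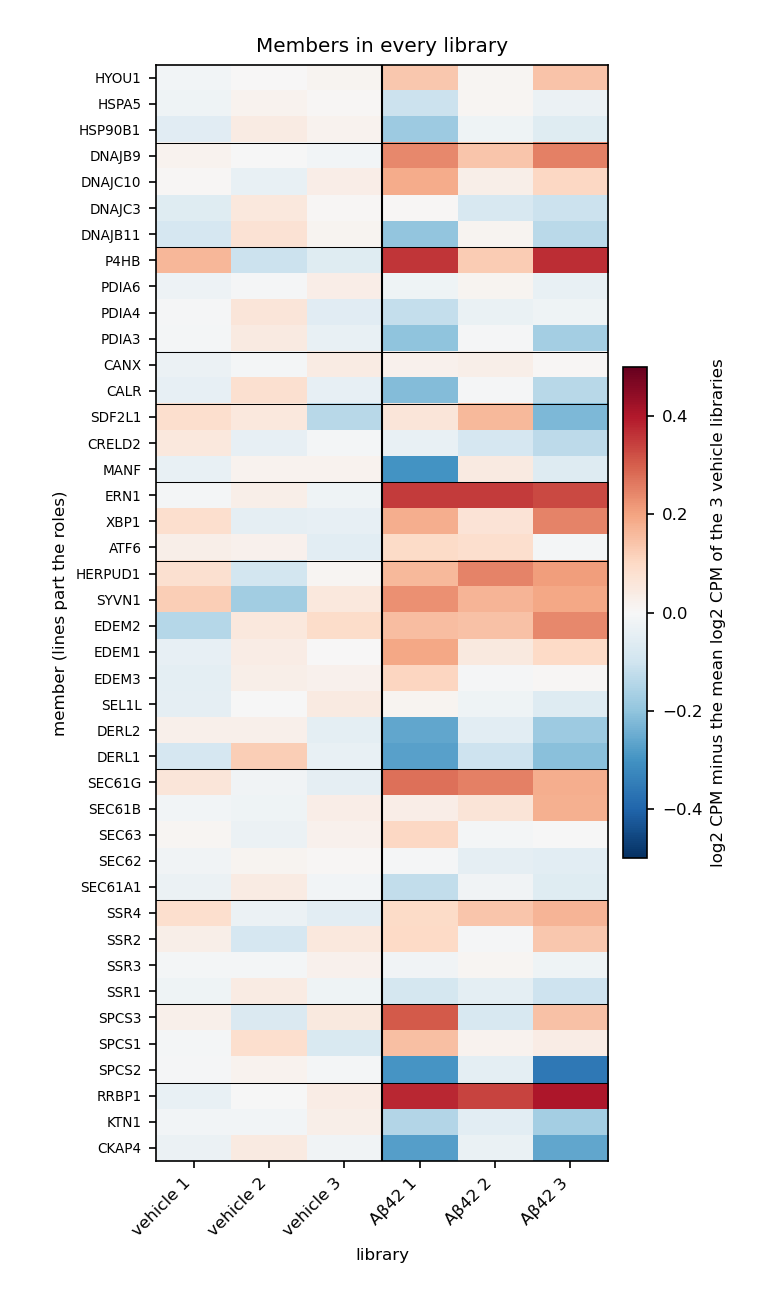
Each row is an ER gene and each column a library; colour gives the log2 CPM minus the mean log2 CPM of the 3 vehicle libraries, from -0.5 (blue) to 0.5 (red). ERN1, RRBP1 and DNAJB9 are red in all 3 Aβ42 libraries, whereas SPCS2, CKAP4 and CALR are clearly blue in Aβ42 replicates 1 and 3 and paler in replicate 2.

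Abundance differed widely between these genes. Per transcript length, in TPM in the vehicle libraries, SEC61G, the small γ subunit of the SEC61 channel, stood highest at 601.2 ± 15.0 (SD, n = 3), followed by calnexin (CANX) at 499.7 ± 15.0, HSP90B1 at 397.7 ± 18.7 and SSR2 at 359.4 ± 16.4 TPM. SEC61B (299.5 ± 11.2) and calreticulin (CALR, 298.9 ± 17.8 TPM) overlapped across libraries and have no order. HSPA5 came 9th at 178.9 ± 4.68 TPM, overlapping SEC61A1 and P4HB below it. At the low end were RRBP1 at 14.2 ± 0.557, SDF2L1 at 8.66 ± 0.675, the sensor ERN1 at 3.70 ± 0.162 and DERL3 at 0.78 ± 0.492 TPM.

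The promoters of the chaperone genes are shown because they carry the elements through which the unfolded protein response acts on transcription. RefSeq promoters (GRCh38.p14, 250 bases before to 50 after the start) were found for 39 of the 43 genes. The ER stress element (ERSE, searched on both strands as CCAAT and CCACG with 9 bases between) was present in 6 of the 39 (15.4%), against 22 of 27305 promoters in all (0.0806%). ERSE-II (ATTGG and CCACG with 1 base between, both strands) was present in 3 of the 39 (7.69%), against 15 promoters in all (0.0549%). In the windows below, written 5′ to 3′ on the gene's own strand, capitals mark the fixed letters of the element. Where it lies on the opposite strand, the capitals read as its reverse complement.
HSPA5 ERSE, chr9:125241379-125241421, minus strand: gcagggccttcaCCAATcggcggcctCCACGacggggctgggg
HSP90B1 ERSE, chr12:103930204-103930246, plus strand: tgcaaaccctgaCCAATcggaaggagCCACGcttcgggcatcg
HSP90B1 ERSE, chr12:103930309-103930351, plus strand: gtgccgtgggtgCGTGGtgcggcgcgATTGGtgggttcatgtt
CALR ERSE, chr19:12938372-12938414, plus strand: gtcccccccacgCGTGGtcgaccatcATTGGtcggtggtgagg
CANX ERSE, chr5:179698766-179698808, plus strand: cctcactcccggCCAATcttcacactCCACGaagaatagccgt
CRELD2 ERSE, chr22:49918542-49918584, plus strand: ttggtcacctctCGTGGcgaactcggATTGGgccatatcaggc
XBP1 ERSE, chr22:28800591-28800633, minus strand: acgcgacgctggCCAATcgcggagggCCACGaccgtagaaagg
HYOU1 ERSE-II, chr11:119057368-119057402, minus strand: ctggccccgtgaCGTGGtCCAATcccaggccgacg
HYOU1 ERSE-II, chr11:119057262-119057296, minus strand: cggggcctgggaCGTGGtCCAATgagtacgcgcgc
HERPUD1 ERSE-II, chr16:56932013-56932047, plus strand: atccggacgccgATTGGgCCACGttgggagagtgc
SDF2L1 ERSE-II, chr22:21642102-21642136, plus strand: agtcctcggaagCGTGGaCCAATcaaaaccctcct
HSP90B1 and HYOU1 each held 2 copies, and the HSPA5 copy spanned positions -66 to -48 from the start site. Another element, the UPRE (TGACGTGG, both strands), was found in DNAJC10, SEC62 and HYOU1 (7.69% of the 39, against 0.795% of all promoters), and in HYOU1 it overlapped the upstream ERSE-II.

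Genes with these elements had fold changes of either sign. The 6 ER genes with an ERSE had log2 fold changes of -0.12 to 0.17, and the other 9 tested genes with one, among them ERO1B, SERP1 and FICD, had -0.17 to 0.24. None of these 15 passed the test without a block or with it, when 14.2% of all genes passed with the block, and 7 were higher and 8 lower. Of the 3 ER genes with an ERSE-II, HERPUD1 was at 0.20, HYOU1 at 0.10 and SDF2L1 at 0.00. Over all 11 tested genes with an ERSE-II, 2 outside the ER set passed with the block (18.2%), SHCBP1 at -0.56 and PLS3 at -0.49, both lower and named after their values were seen. Of 110 tested genes with the UPRE, 4 were higher and 9 lower with the block (11.8%), and none of the 3 ER genes was among them. A match of letters is a description and not a shown binding site.

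**Figure D3:**
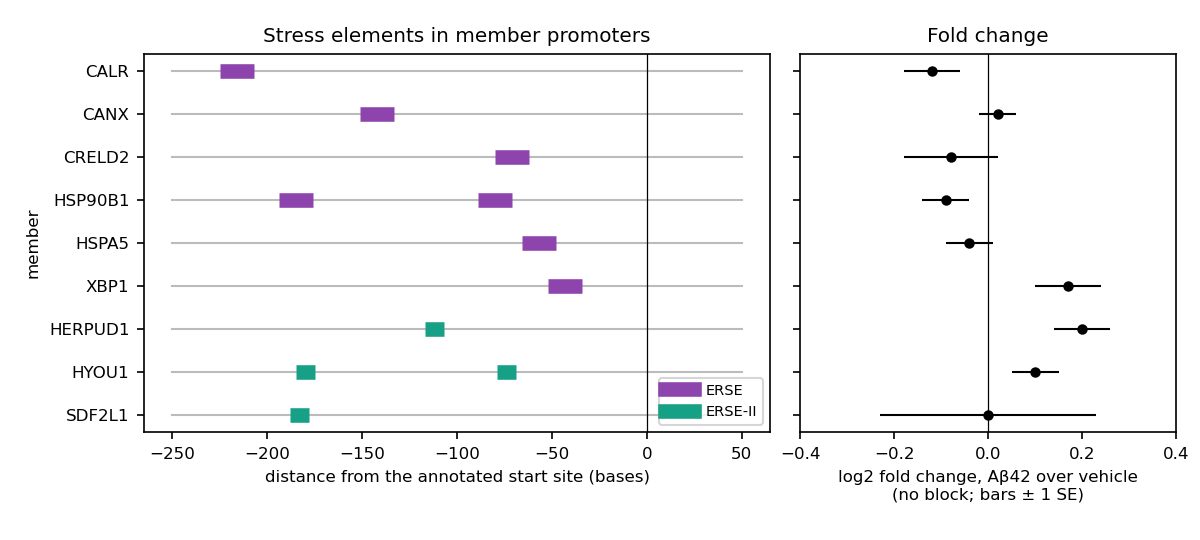
Left, position of ERSE (purple) and ERSE-II (green) matches in bases from the annotated start site for the 9 ER genes that hold one; right, log2 fold change of Aβ42 over vehicle with bars of 1 SE (n = 3 libraries per group). The fold changes lie on either side of 0, from -0.12 (CALR) to 0.20 (HERPUD1).

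Of the 3 luminal Hsp70 and Hsp90 chaperones, HSPA5 and HSP90B1 lay slightly lower and HYOU1 slightly higher after Aβ42, and none passed without a block or with it. HSPA5 (BiP, Entrez gene 3309, chr9:125234853-125241343), the Hsp70 of the ER and the classical readout of the response, was at 261.6, 269.0 and 267.1 CPM after vehicle and 247.0, 267.4 and 260.4 CPM after Aβ42. The groups overlapped, and the log2 fold change was -0.04 ± 0.05 (SE), with a 95% interval of -0.13 to 0.05 and an adjusted p of 0.603. HSP90B1, the Hsp90 of the ER (Entrez gene 7184), was at 387.1, 414.2 and 408.3 CPM after vehicle and 355.8, 397.2 and 386.0 CPM after Aβ42. Its log2 fold change was -0.09 ± 0.05, with an interval of -0.19 to 0.02 and an adjusted p of 0.345. HYOU1, which exchanges nucleotide on HSPA5, was at 126.8 ± 1.23 CPM after vehicle and 135.6 ± 6.97 CPM after Aβ42 (SD, n = 3), a log2 difference of 0.10 (adjusted p 0.265). Without Aβ42 replicate 2 HYOU1 was called higher, with an adjusted p of 0.041.

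J-domain co-chaperones hand unfolded chains to HSPA5 and stimulate its ATPase. Among the 4, DNAJB9 stood out, a J protein induced through XBP1 that also binds the luminal domain of IRE1. DNAJB9 (Entrez gene 4189, chr7:108569874-108574850) was at 38.1, 37.6 and 37.3 CPM after vehicle and 44.5, 41.5 and 44.9 CPM after Aβ42, so every Aβ42 library lay above every vehicle library. The log2 fold change was 0.21 ± 0.06, the adjusted p 0.0916 without a block and 0.0428 with it, and 0.0596 with the block and the length correction together. DNAJC10, a reductase of the ER with a J domain, was 0.11 higher and passed only with the block and length correction (adjusted p 0.0389) and without Aβ42 replicate 2 (0.0459). DNAJB11 and DNAJC3 were at -0.10 and -0.06 on the log2 scale, and passed under none of the 14 alternatives.

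Disulfide isomerases catalyse the oxidation and shuffling of cysteine pairs. P4HB, the founding isomerase and a subunit of prolyl 4-hydroxylase (Entrez gene 5034, chr17:81843166-81860535), was at 162.3, 134.0 and 138.7 CPM after vehicle and 185.0, 157.8 and 186.7 CPM after Aβ42. The groups overlapped, since Aβ42 replicate 2 lay below vehicle replicate 1, yet each Aβ42 library exceeded the vehicle library of its own number. The log2 fold change was 0.28 ± 0.09, with an adjusted p of 0.108 without a block and 0.00323 with it. None of the other isomerases was higher. PDIA3, which works with the lectin chaperones on glycoproteins, was at -0.12 (adjusted p 0.218, and 0.0134 without Aβ42 replicate 2), PDIA4 at -0.06 and PDIA6 at -0.01, a sign that turned to 0.002 without vehicle replicate 3.

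The lectin chaperones hold glycoproteins until they are folded. Membrane-bound CANX, at 901.5 ± 23.0 and 912.8 ± 7.64 CPM, differed by 0.02 on the log2 scale of CPM and by -0.02 on that of TPM, with adjusted p-values of 0.830 and 0.796. Its soluble homologue CALR was at 193.9 ± 9.60 CPM after vehicle and 178.6 ± 13.4 CPM after Aβ42, at -0.12 with an adjusted p of 0.263. CALR passed with the block and length correction together (0.0365) and without Aβ42 replicate 2 (0.0278). The small luminal proteins CRELD2 and MANF, both secreted on ER stress, were at -0.08 and -0.10 with adjusted p-values of 0.643 and 0.549. SDF2L1, a partner of HSPA5 and DNAJB11, was at 1.86, 1.82 and 1.59 CPM after vehicle and 1.83, 1.96 and 1.50 CPM after Aβ42. The groups overlapped, and at this depth the log2 difference of 0.00 ± 0.23 had an interval of -0.45 to 0.46, with a sign that turned on the TPM scale (-0.06) and with the length correction (-0.05).

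**Figure D4:**
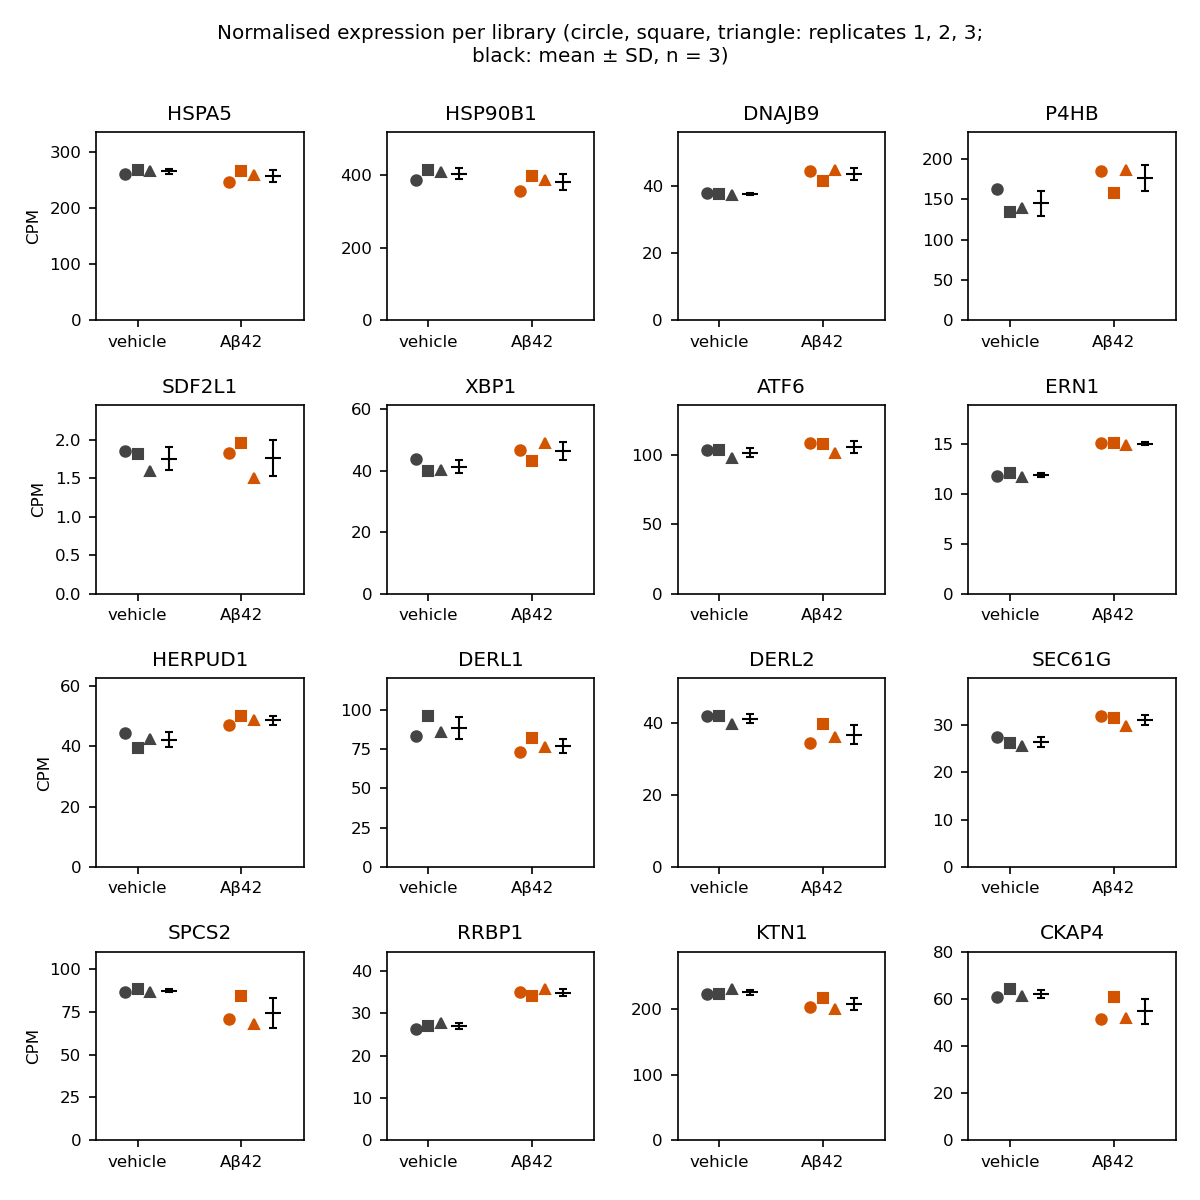
CPM (y axis, from 0) of the 16 ER genes described library by library, with replicates 1, 2 and 3 as circle, square and triangle, vehicle in grey and Aβ42 in orange, and the mean ± SD of 3 libraries in black. ERN1 (11.7 to 12.1 against 14.9 to 15.1 CPM) and RRBP1 (26.3 to 27.7 against 34.1 to 35.7 CPM) separate without overlap, and HSPA5 and HSP90B1 overlap.

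All 3 stress transducers among these genes were higher after Aβ42, with 1 past the threshold under the block (33.3%, beside 14.2% of all genes). Outside this set, EIF2AK3 (-0.25) and ATF6B (-0.13) were lower in every Aβ42 library. Of the 9 tested genes of other stress transducers and their processing, ATF6B among them, 5 were higher and 4 lower. ERN1 (Entrez gene 2081, chr17:64039142-64130144), the kinase and endoribonuclease IRE1 that splices XBP1 mRNA, was at 11.8, 12.1 and 11.7 CPM after vehicle and 15.1, 15.1 and 14.9 CPM after Aβ42. Every Aβ42 library, replicate 2 included, lay above every vehicle library. The rise was 1.27-fold (log2 0.34 ± 0.09), with an adjusted p of 0.0765 without a block and 0.0273 with it. XBP1, the transcription factor that IRE1 activates, was at 43.8, 40.1 and 40.2 CPM after vehicle and 46.9, 43.3 and 49.1 CPM after Aβ42. Only Aβ42 replicate 2 overlapped the vehicle range. The log2 fold change was 0.17 ± 0.07, with an adjusted p of 0.175, and 0.0341 without that library. Counts per gene do not separate spliced from unspliced XBP1, so IRE1 activity was not measured. ATF6, the sensor cleaved in the Golgi, was at 103.7, 103.3 and 98.1 CPM after vehicle and 108.7, 107.8 and 101.1 CPM after Aβ42. Its groups overlapped, with a log2 fold change of 0.06 ± 0.05 and an adjusted p of 0.498.

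Of the 8 tested genes of ER-associated degradation in this set, 4 were higher and 2 lower in every Aβ42 library (75.0%, beside 27.0% of all genes without overlap). Among the 21 further degradation genes named below, 1 was higher and 4 lower in every Aβ42 library (23.8%). With the block 1 of the 8 passed (12.5%, near the 14.2% of all genes). HERPUD1, a membrane organiser of the degradation complex induced in the unfolded protein response (Entrez gene 9709), was at 44.6, 39.6 and 42.4 CPM after vehicle and 47.2, 50.1 and 48.7 CPM after Aβ42. Its log2 fold change was 0.20 ± 0.06, with an adjusted p of 0.108. The ubiquitin ligase SYVN1 (0.19), which HERPUD1 joins, and the mannosidase-like EDEM1 (0.11) and EDEM2 (0.18), which mark glycoproteins for disposal, were likewise higher in all 3 libraries but passed under none of the 14 alternatives. EDEM3 was at 0.04 and turned to -0.02 on the TPM scale, and SEL1L, the adaptor of SYVN1, was at -0.02 and turned to 0.006 with the length correction.

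The derlins are membrane proteins that help draw substrates out of the ER, and of the 2 tested DERL1 passed with the block. DERL1 (Entrez gene 79139) was at 83.2, 96.2 and 86.0 CPM after vehicle and 73.2, 82.2 and 76.4 CPM after Aβ42. No Aβ42 library reached the vehicle range, and the log2 fold change was -0.20 ± 0.07, with an adjusted p of 0.124 without a block and 0.0244 with it. DERL2 (Entrez gene 51009) was at 41.9, 42 and 39.8 CPM after vehicle and 34.4, 39.7 and 36.3 CPM after Aβ42. The groups nearly touched, at 39.7 CPM in Aβ42 replicate 2 and 39.8 CPM in vehicle replicate 3. Its log2 fold change was -0.16 ± 0.07, with an adjusted p of 0.183 and, without Aβ42 replicate 2, 0.0304.

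In the translocation channel the subunits did not move as 1 unit. SEC61G (Entrez gene 23480, chr7:54752253-54759211) was at 27.5, 26.1 and 25.6 CPM after vehicle and 31.9, 31.4 and 29.9 CPM after Aβ42, without overlap. The log2 fold change was 0.23 ± 0.07, with an adjusted p of 0.0946 without a block and 0.0366 with it. The SEC61G transcript is among the shortest 0.173% of tested genes by the length in the deposited values, and with the length correction its fold change was 0.10 and its adjusted p 0.379 with the block. SEC61B, the β subunit and also short, was at 0.10 on the scale of CPM, 0.01 with the length correction and -0.006 on that of TPM. The pore subunit SEC61A1 (-0.07) and the partners of the channel in post-translational import, SEC62 (-0.03) and SEC63 (0.03, or -0.007 without Aβ42 replicate 1), had adjusted p-values of 0.406, 0.643 and 0.722. The 5 channel genes summed to 710.4 to 718.2 CPM after vehicle and 705.2 to 719.4 CPM after Aβ42.

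The translocon-associated protein complex (SSR1 to SSR4) assists the entry of some signal sequences. None of its 4 subunits passed under any alternative. SSR4 (0.13) was higher and SSR1 (-0.08) lower in all 3 Aβ42 libraries, SSR2 was at 0.08, and SSR3 was at -0.01 and turned to 0.003 with the length correction.

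Signal peptidase removes the signal sequence as chains enter the lumen. SPCS2, an accessory subunit (Entrez gene 9789, chr11:74949266-74979033), was at 86.8, 88.2 and 86.6 CPM after vehicle and 71.0, 84.4 and 68.0 CPM after Aβ42. All 3 Aβ42 libraries lay below vehicle, but replicate 2 by far less than the others. The log2 fold change was -0.23 ± 0.07, with an adjusted p of 0.116 without a block, 0.0204 with it and 0.00113 without Aβ42 replicate 2. SPCS3, which the active enzyme needs, was at 120.5 ± 5.18 and 132.2 ± 17.5 CPM (log2 0.13, adjusted p 0.373), and SPCS1 at 44.8 ± 2.44 and 47.0 ± 2.42 CPM (log2 0.07, adjusted p 0.550). SPCS3 passed without Aβ42 replicate 2 (0.0139). The annotation names 4 SPCS2 pseudogenes, with which its reads may be shared.

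The rough ER membrane proteins, which shape ER sheets and bind ribosomes or microtubules, differed in direction. RRBP1 passed with the block, whereas KTN1 and CKAP4, lower in all 3 Aβ42 libraries, passed neither without it nor with it. All 3 genes were without overlap between groups, as 27.0% of all genes were. RRBP1, the ribosome-binding protein of the rough ER (Entrez gene 6238, chr20:17613679-17682242), was at 26.3, 26.9 and 27.7 CPM after vehicle and 35.0, 34.1 and 35.7 CPM after Aβ42. Replicate 2 was as high as the other Aβ42 libraries. The rise was 1.30-fold (log2 0.37 ± 0.06, 95% interval 0.25 to 0.50), with an adjusted p of 0.0684 without a block and 0.00245 with it, and RRBP1 passed in 6 of the 14 alternatives, more than any other ER gene. KTN1 (kinectin, Entrez gene 3895) was at 223.4, 223.7 and 230.3 CPM after vehicle and 203.8, 217.7 and 200.5 CPM after Aβ42. Its log2 fold change was -0.12 ± 0.05, with an adjusted p of 0.157. CKAP4 (Entrez gene 10970), which spaces the membranes of ER sheets, was at 60.9, 64.2 and 61.5 CPM after vehicle and 51.4, 60.8 and 52.0 CPM after Aβ42. Replicate 2, at 60.8 CPM, was just under the lowest vehicle library. The log2 fold change was -0.18 ± 0.07, with an adjusted p of 0.154, and 0.0375 with the block and length correction.

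All 6 markers of dividing cells passed with the block, each lower, and their sum in Aβ42 replicate 2 (643.6 CPM) was nearer to vehicle than in replicates 1 and 3 (470.8 and 454.6 CPM). The lower genes SPCS2, CKAP4, KTN1, DERL1 and DERL2 and the higher genes P4HB, DNAJB9 and XBP1 also lay nearer to vehicle in replicate 2. SPCS3, higher on average, was in replicate 2 (114.1 CPM) below every vehicle library (114.7 to 124.5 CPM). ERN1, RRBP1 and HERPUD1 were at about the same level in all 3 Aβ42 libraries. In 21.0% of all genes replicate 2 fell inside the vehicle range while replicates 1 and 3 lay outside on the same side. The part of dividing cells in these results was not tested.

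Of 134 further ER genes in 10 lists, 132 were tested. None passed without a block, 12 were higher and 4 lower with it (12.1%, beside 14.2% of all genes), and the median log2 fold change was 0.038. DESeq2 without a block called 6 higher and 1 lower (5.3%, beside 6.3% of all genes).

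Among these lists the PERK branch held the most calls. Of its 12 genes 10 were higher and 2 lower, with a median of 0.146, and 4 higher and 1 lower passed with the block (41.7%, beside 14.2% of all genes). The lists were chosen with earlier results of these data known, so this share and those of the lists that follow are descriptions only. DDIT3 (CHOP), a stress-induced transcription factor linked to cell death, was at 23.8, 18.8 and 22.4 CPM after vehicle and 31.6, 27.0 and 37.9 CPM after Aβ42. Its groups did not overlap, with a log2 fold change of 0.57 ± 0.13 and an adjusted p of 0.0734 without a block and 0.000447 with it. ATF4, the translationally controlled activator upstream of DDIT3, was at 309.6, 268.2 and 283.3 CPM after vehicle and 323.4, 320.2 and 350.0 CPM after Aβ42 (log2 0.21 ± 0.06, adjusted p 0.0952 and, with the block, 0.0178). ATF3, another stress-induced factor, was at 30.7, 26.4 and 30.1 CPM after vehicle and 35.8, 36.7 and 40.1 CPM after Aβ42 (log2 0.37 ± 0.08, adjusted p 0.0691 and 0.00353). SESN2, an ATF4 target outside the naming rule and chosen after its value was seen, was the remaining gene higher with the block (0.39, adjusted p 0.00131). These 4 factors and targets can also be driven by stresses outside the ER.

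EIF2AK3, the gene of PERK itself, went the other way. It was at 77.9, 80.4 and 78.1 CPM after vehicle and 60.6, 73.9 and 63.8 CPM after Aβ42, without overlap, with a log2 fold change of -0.25 ± 0.07 and an adjusted p of 0.0891 without a block and 0.0105 with it. TRIB3 (0.22), CHAC1 (0.06), ASNS (0.14), PPP1R15A (0.15), PPP1R15B (0.11), EIF2S1 (0.07) and NUPR1 (-0.05) did not pass with the block.

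**Figure D5:**
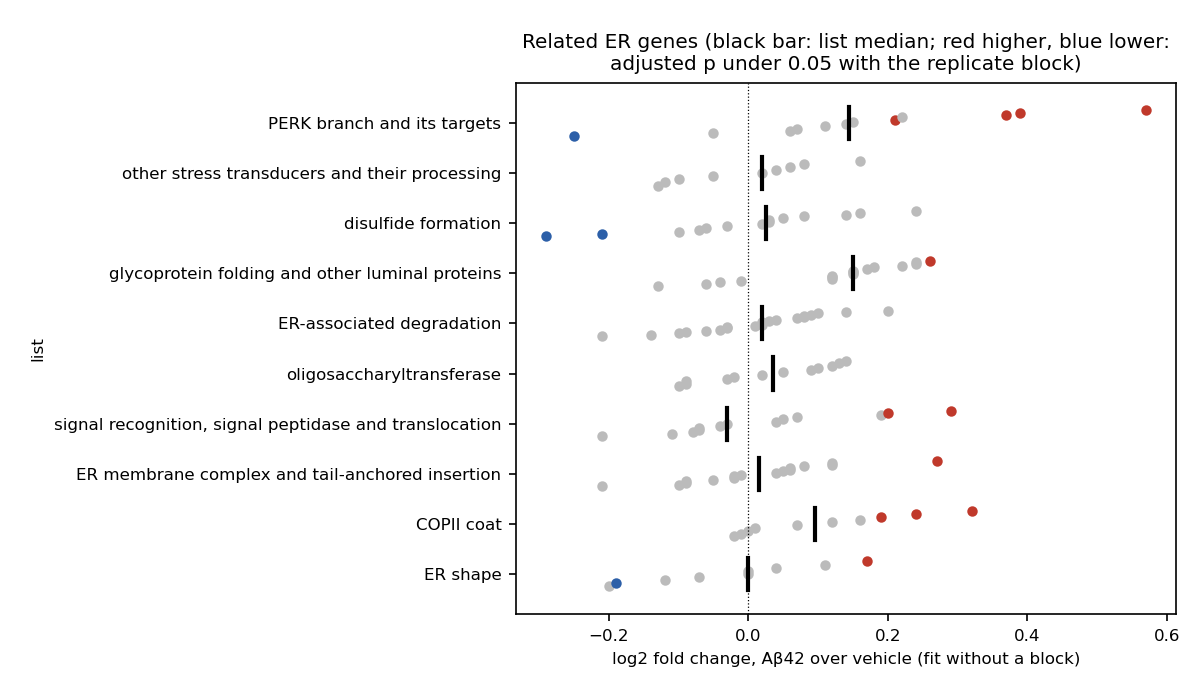
Log2 fold change of Aβ42 over vehicle for the 132 tested genes of 10 further ER lists; each point is a gene, the black bar is the list median, and red (higher) or blue (lower) points passed an adjusted p of 0.05 with the replicate block. The PERK list reaches from -0.25 (EIF2AK3) to 0.57 (DDIT3), while most points of the degradation and oligosaccharyltransferase lists are grey between -0.21 and 0.20.

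Export from the ER was a further list with calls. Of 10 genes of the COPII coat, which buds vesicles from ER exit sites, 3 were higher with the block and none lower (30.0%, beside 14.2% of all genes). SEC31A, of the outer coat, was at 227.1, 203.5 and 221.6 CPM after vehicle and 264.7, 241.0 and 265.2 CPM after Aβ42, without overlap (log2 0.24 ± 0.06, adjusted p 0.0734 without a block and 0.00366 with it). The cargo adaptors SEC24C (0.19) and SEC24D (0.32) were the other two, named after their values were seen. SEC24A, an adaptor of the same family, was at -0.02 and turned to 0.003 with the length correction.

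Folding enzymes outside the main set gave 3 calls with the block. These were 1 in glycoprotein folding (6.25%) and 2 in disulfide formation (14.3%), beside 14.2% of all genes. PRKCSH, the β subunit of glucosidase II, which trims glycans for the lectin chaperones, was at 139.7, 124.4 and 130.5 CPM after vehicle and 162.4, 143.9 and 166.3 CPM after Aβ42 (log2 0.26 ± 0.06, adjusted p 0.0734 and, with the block, 0.00397). It was the single call among 16 tested genes of glycoprotein folding, of which 12 were higher and 4 lower. The glucosyltransferase UGGT1, the folding sensor of the same cycle, was at -0.13 ± 0.06 (adjusted p 0.243). Among 14 genes of disulfide formation the membrane-bound thioredoxins TMX1 (-0.21, adjusted p 0.0392 with the block) and TMX4 (-0.29, 0.00353, named after its value was seen) were lower. ERP29, a luminal relative of the isomerases without their active cysteines, was at 0.16 ± 0.06 (adjusted p 0.156).

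In targeting, SRP54, the GTPase of the signal recognition particle, was at 81.1, 81.5 and 84.5 CPM after vehicle and 99.5, 91.1 and 92.9 CPM after Aβ42 (log2 0.20 ± 0.05, adjusted p 0.0807 and, with the block, 0.0265). Its receptor SRPRA was also higher (0.29, 0.0195 with the block, named after its value was seen), and SRP19 was at -0.21 (adjusted p 0.108, and 0.0354 with the block and length correction). SRP54 and SRPRA were the only calls with the block among 13 genes of this list (15.4%, beside 14.2% of all genes). GET4, which passes tail-anchored proteins to the ER, was at 20.7, 20.2 and 20.7 CPM after vehicle and 24.9, 24.3 and 24.9 CPM after Aβ42 (log2 0.27 ± 0.07, adjusted p 0.0807 and 0.0305). It was the single call among 16 genes of the ER membrane complex and tail-anchored insertion (6.25%), where EMC6 was at -0.21 ± 0.12 (adjusted p 0.299). Of 9 ER-shaping genes, LNPK, which stabilises tubule junctions, was higher (0.17, 0.0381 with the block) and the microtubule-severing SPAST lower (-0.19, 0.0457). These were the only calls of that list (22.2%).

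The remaining lists held no call with the block. They were 9 tested genes of other stress transducers and their processing (RTCB, the ligase that joins spliced XBP1, at 0.16 ± 0.06 and ATF6B at -0.13 ± 0.06), 21 further degradation genes (MAN1B1 at 0.14 and UBE2J1 at -0.14) and 12 genes of the oligosaccharyltransferase, which attaches glycans (STT3A at 0.12 and RPN2 at -0.10). At an unadjusted p under 0.05 without a block these lists held 1, 2 and 1 genes (11.1%, 9.52% and 8.33%), beside 23.9% of all genes.

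Sharing of reads limits some of these values. The annotation names pseudogenes for 9 of the 43 genes, RRBP1, SEC61G and XBP1 among them, and the exons of 26 overlap another gene. The overlap is on the opposite strand in 25 and on the same strand in 5 (HSP90B1, DNAJB11, DNAJC10, SYVN1 and SSR1), 4 of which have both. Whether counting used strand is not given in the sources used here.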

How the data were processed

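Poly(A)-enriched, stranded RNA libraries of 6 organoid samples were sequenced. The authors deposited 1 table with counts and TPM per gene. The submitters' processing notes name GRCh38, FastQC, STAR 2.7.11b and featureCounts 2.0.6, with no role or order. The annotation, the strand and multi-mapping settings and how TPM was made are not given in the sources used here. Only 86.9% to 87.5% of the deposited count values in a library were whole, so they were treated as estimated counts and rounded. The deposited TPM values served for levels between genes and, as log2(TPM + 1) with limma 3.58.1, for 1 alternative.

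Genes were filtered with filterByExpr, scaled by TMM (factors 0.996 to 1.006) and compared with edgeR 4.0.16 (R 4.3.3), quasi-likelihood test, two-sided, Benjamini-Hochberg over 13842 genes, threshold 0.05, without a block. SE is the log2 fold change divided by the root of the F statistic, and intervals are 1.96 SE. The biological coefficient of variation was 6.75%. The fit was tested on simulated counts in which every gene given a change had a larger one than any ER gene here. That test does not bear on changes as small as these.

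Deviations from group means correlated between same-numbered libraries at 0.181, 0.388 and 0.129 over 12186 genes. All exceed 0.1, so libraries of 1 number were treated as pairs in the block, which rests on the data alone. The blocked value is given where it changes a call. The same correlation was not computed between libraries of different numbers, so these values do not show that the libraries are paired. In log2 CPM every vehicle library correlated best with Aβ42 replicate 2 among the Aβ42 libraries (0.9941, 0.9916 and 0.9935 for vehicle replicates 1, 2 and 3). Vehicle replicate 1 correlated less with vehicle replicates 2 and 3 (0.9918 and 0.9935) than with Aβ42 replicate 2. Aβ42 replicate 2 correlated less with Aβ42 replicates 1 and 3 (0.9891 and 0.9904) than with any vehicle library. No 2 libraries differed by as little as sampling noise.

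Alternatives were the block, a length correction, RLE scaling, no filter, DESeq2 1.42.0, sample quality weights, TPM and leaving out each library. The members and lists were chosen with earlier results of these data known. The result of 1 marker gene is not reported here. Values per library are given for HSPA5, HSP90B1, XBP1, ATF6, ERN1, HERPUD1, DNAJB9 and SDF2L1, members past the threshold without or with the block, and the 5 with the smallest p in each direction. From each further list the gene with the smallest p in each direction is named, with DDIT3, ATF4 and EIF2AK3.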

Additional observations from a re-analysis of the deposited data

How the results depend on the processing

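Counts of called genes depended on the model. Over all genes 0 were called higher or lower without a block. The replicate block gave 986 higher and 976 lower, the block with length correction 1051 and 972, no filter on low counts 189 and 171, DESeq2 384 and 420, and sample quality weights 1251 and 1292. For the 42 ER genes the same settings gave, in that order, 5 and 2, 4 and 4, 1 and 0, 2 and 0, and 7 and 5. For the 132 further ER genes they gave 12 and 4, 12 and 6, 3 and 0, 6 and 1, and 15 and 8. Length correction alone, RLE scaling and TPM gave 0. Leaving out 1 library gave 0 to 1609 higher and 0 to 1619 lower genes, 0 to 9 and 0 to 7 ER genes, and 0 to 23 and 0 to 9 further genes, with calls only without Aβ42 replicate 2. The cause was not tested.

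The ER genes' median of 0.011 was -0.027 on the TPM scale, where that of all genes was -0.04, and -0.006 to 0.036 with 1 library left out. The 15 genes without overlap became 16 to 29, the highest without Aβ42 replicate 2, when 53.5% of all genes did not overlap.

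No called direction turned. Directions near 0 turned in 17 of 588 comparisons, in 8 ER genes. These were PDIA6 (0.002 without vehicle replicate 3, from -0.03 with 1 library left out), CANX (-0.02 on TPM), SDF2L1 (-0.05 with the length correction with or without the block, -0.04 with weights, -0.06 on TPM, and -0.08 to 0.11 with 1 library left out, turning at -0.06, -0.02 and -0.08), SEL1L (0.006 with the length correction with or without the block), EDEM3 (-0.02 on TPM), SEC61B (-0.006 on TPM), SEC63 (-0.007 without Aβ42 replicate 1, up to 0.05 with 1 library left out) and SSR3 (0.003 with the length correction with or without the block and without vehicle replicate 3). Among the 22 further genes named by rule, SEC24A alone turned (0.003 with the length correction with or without the block). The block changed no other call among the ER genes, the further ER genes and the markers than those given in the results. With 16465390 to 16742958 counts per library, depth limited SDF2L1 and DERL3 most.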
